A study of Mus musculus with 20 samples.

Results

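Macrophages grown from B-cell precursors of the bone marrow (BM), termed B-MF, were compared with macrophages grown from monocytes (Mo-MF) after neutrophil-like, cycling and high-mitochondrial cells had been set aside. A cell was kept when it had fewer than 50 corrected counts of S100a8 and S100a9 together, 0 counts of Csf3r, at least 1 count of Csf1r, fewer than 3 counts of Mki67 and Top2a together, and under 12% of its counts from the 13 mitochondrially encoded genes. Of 20798 cultured cells, 8261 (39.7%) were kept. These were 2626 and 2999 cells in replicates 1 and 2 of B-MF, and 1252 and 1384 cells in replicates 1 and 2 of Mo-MF. The cells were thus selected on measured values, and the genes that the rule reads are described below without a test. All single-cell data of the series together, with macrophages sorted from tumors, hold 31683 cells.

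For B-MF, B cells without markers of other lineages were sorted from BM of young adult female mice, while Mo-MF started from monocytes. Both were cultured for a week in medium conditioned by 4T1.2 cells, a mouse breast cancer line, so no untreated cells are among these libraries and the medium is shared by both groups. No transgene and no other agent is named for these cultures. The study's methods name C57BL/CJ or BALB/CJ mice as source of the B cells, but not which strain was used for these libraries. Kept cells had a median of 18368 to 19565 corrected counts in the 4 libraries, and any pair of libraries shared 0 to 2 of the cell barcodes kept. Their median number of genes was 3437 in B-MF replicate 2 and 3884 to 3951.5 in the other libraries. The 2 libraries of a type are not stated to come from separate cultures or mice, so that p-values measure only the spread between these libraries, which may be technical.

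Macrophages take up dead cells, iron and lipids, present antigen and release cytokines, and they depend on CSF1R, the receptor for M-CSF. Cells of the B lineage and monocytes arise from separate branches of hematopoiesis, and a macrophage grown from either may keep traces of its branch. Id proteins bind E proteins, the basic helix-loop-helix factors that drive B-cell development, and keep them from DNA. Ferroportin, encoded by Slc40a1, is the iron exporter of macrophages, and PD-L1, encoded by Cd274, is a ligand that restrains T cells.

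The Csf3r condition set most of the selection. It was the only condition failed by 3415 B-MF (32.3% of that type) and by 5472 Mo-MF (53.5%). Csf3r encodes the receptor for G-CSF and is highest in neutrophils, but the cells failing on it alone carried macrophage genes. Their mean Cd68 was 34.2 to 35.7 corrected counts per cell in all 4 libraries and their mean Adgre1 5.38 to 7.03, while Ngp, a neutrophil granule gene that the rule does not read, was at 0 for B-MF and at 0.0508 and 0.0350 for Mo-MF. Their S100a8 is low by the rule itself. The cells with 50 or more counts of S100a8 and S100a9 were 3 in B-MF and 991 in Mo-MF, and the latter had 77.9 and 57.4 counts of Ngp and 17.8 and 19.2 of Cd68 per cell. The cells failing on Csf3r alone are called Csf3r-positive macrophages below, and their own comparison stands after that of the kept cells. The kept share was 53.3% of B-MF and 25.8% of Mo-MF.

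**Figure D1:**
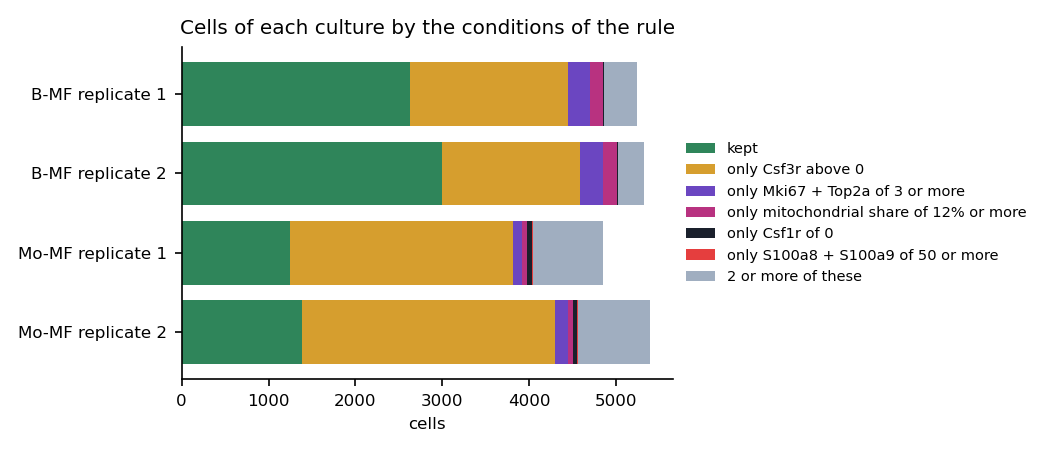
Cells of each library (x axis, number of cells) that were kept or that failed 1 named condition only, or 2 or more conditions. Cells failing on Csf3r alone numbered 1825 and 1590 for B-MF and 2561 and 2911 for Mo-MF.

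Few cells lay near most limits of the rule, other than the Csf3r limit. With every other condition met, 1869 B-MF and 2162 Mo-MF had exactly 1 count of Csf3r and 885 and 1397 had 2. By contrast, 41 B-MF and 212 Mo-MF had 1 count of Csf1r, against 26 and 106 with a count of 0. The Mki67 and Top2a sum was 2 in 250 B-MF and 80 Mo-MF inside the limit, and 3 in 76 and 25 outside. The mitochondrial share was 11% to 12% in 100 B-MF and 23 Mo-MF, and 12% to 13% in 68 and 23. For S100a8 and S100a9, 1 cell in all had 40 to 49 counts and 0 cells had 50 to 59 counts.

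The kept cells of all 4 libraries carried macrophage genes. Cd68, a lysosomal macrophage marker, averaged 38.8 and 38.7 counts for B-MF against 38.7 and 37.8 for Mo-MF, with no difference passing the test (log2 difference 0.02). Adgre1, which encodes F4/80, was at 6.85 and 6.78 in B-MF and at 5.21 and 5.14 in Mo-MF. All 12 genes of the macrophage marker list were measured. Their levels summed to 692 and 658 in B-MF, against 448 and 432 in Mo-MF, most of it Lyz2. Markers of other cell types were low: T or NK cell genes summed to at most 0.0556 counts per cell, dendritic cell genes to at most 0.0303, and fibroblast genes to at most 0.0333.

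Some markers of other lineages remained in the kept cells. The monocyte list summed to 1.60 and 1.52 in B-MF and to 2.92 and 2.68 in Mo-MF, but its members did not move together. Of 6 tested, Plac8, Ccr2, Ms4a4c and Hp were lower in B-MF, while F13a1 (0.783 and 0.804 against 0.246 and 0.185, difference 1.51) and Ifitm6 (0.29) were higher. Osteoclast markers summed to 0.629 and 0.590 in B-MF and to 2.11 and 2.08 in Mo-MF, and all 3 members tested were lower in B-MF, namely Acp5 (-2.15), Ctsk (-1.27) and Mmp9 (-0.30). The 13 neutrophil markers summed to 3.74 and 3.81 in B-MF and to 5.69 and 5.16 in Mo-MF, most of it Mmp8. The list includes S100a8, S100a9 and Csf3r, which the rule reads. The 7 mast cell or basophil markers measured summed to 3.29 and 0.901 in the Mo-MF libraries and to 7.62e-04 and 0 in B-MF. Prss34, a basophil protease, was among the genes with the largest difference, at 2.52 and 0.587 counts per cell in Mo-MF and at 0 in B-MF. Of these counts, 99.9% and 99.5% lay in 6 and 2 cells that held at least 10 counts of Prss34 and Mcpt8 together, with a median of 2 and 2.5 counts of Csf1r. Without those 8 cells Prss34 was at 0.00321 and 0.00289, so that this difference rested on 8 cells. With cells holding 3 or more counts of Ly6c2 and Plac8 together also left out, 1403 genes were higher and 1116 lower in B-MF. The rule alone gave 1352 and 1167, as described below. The part of the other monocyte genes and of the osteoclast and neutrophil genes in the results below was not tested.

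Corrected counts were averaged over the kept cells of each library, 0.1 was added, and limma compared the log2 values of 8546 genes, those whose mean over the libraries was 0.1 or more. Library means, not cells, were the replicates. The differences below are B-MF minus Mo-MF on this log2(mean + 0.1) scale, on which low genes appear less changed than they are. With the adjusted p threshold at 0.05, B-MF had 1352 higher genes (15.8%) and 1167 lower genes (13.7%), or 29.5% in either direction. Among the 8546 genes, 17 are read by the selection rule. They stay in these totals and in the adjustment, but no call on them is reported. These shares are the background for every count of list members below, and the median difference over all genes tested was 0.01. The libraries of the types did not overlap in 2887 higher and 2575 lower genes, whether called or not. A difference of at least 1 was reached by 94 of the higher genes, and of at most -1 by 99 of the lower ones. Omitting 1 library moved the counts of calls. Without B-MF replicate 2 mainly the higher genes rose in number, and without B-MF replicate 1 mainly the lower genes. Without either Mo-MF library both counts fell. With 1 library left out an arm holds a single sample, which is assumed to vary like the other type. A chi-square on summed counts was 6.92 per gene between the B-MF replicates and 2.32 between the Mo-MF replicates, which had fewer cells.

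**Figure D2:**
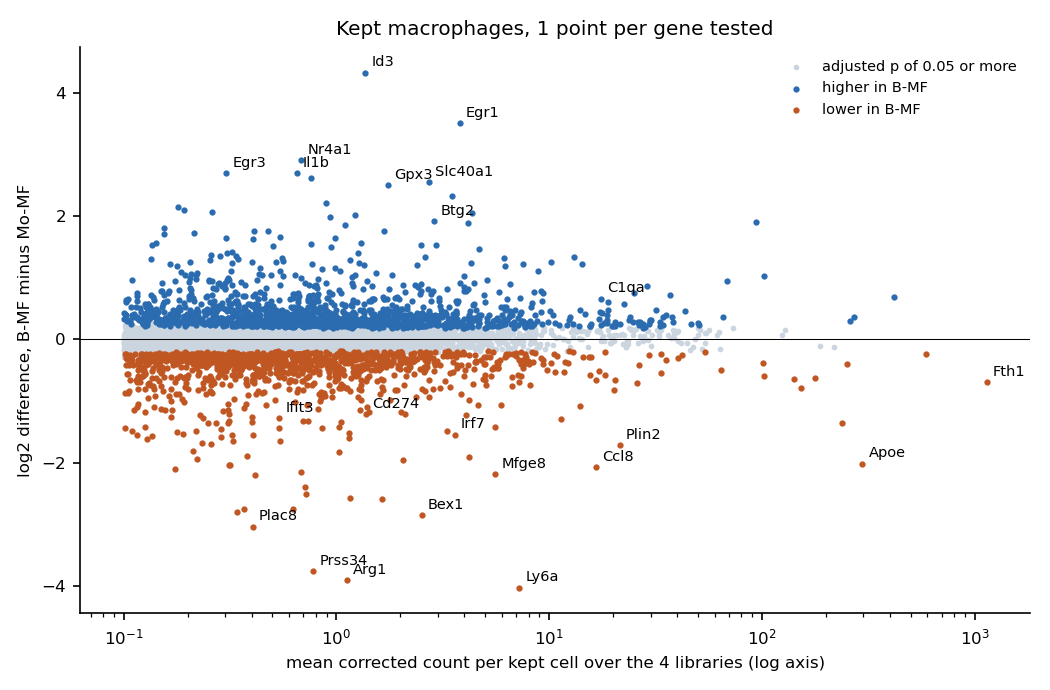
Each point is a gene tested in the kept macrophages, with its mean corrected count per cell over the 4 libraries on a log x axis and its log2 difference, B-MF minus Mo-MF, on the y axis. Genes read by the selection rule are left out, and blue and orange points passed the test. Id3 stands highest at 4.32 and Ly6a lowest at -4.02.

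Csf1r, which the rule reads at the low end only, averaged 11 and 10.8 corrected counts for B-MF against 5.47 and 5.44 for Mo-MF. Its median over cells was 10 in both B-MF libraries, against 4 and 4.5 for Mo-MF. All 13 mitochondrially encoded genes, also read by the rule, were higher in both B-MF libraries than in both Mo-MF libraries, by 0.29 to 0.67. Of all 8546 genes tested, 2887 were higher in this way. Their share of counts in kept cells stood at 6.69% and 6.89% for B-MF and at 4.58% and 4.86% for Mo-MF.

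Id3, an inhibitor of helix-loop-helix factors (chromosome 4, 136143497 to 136145755, GRCm38), had the largest positive difference of all genes tested. Its level per cell was 2.92 and 2.45 counts in B-MF and at most 0.0419 in Mo-MF (0.0359 and 0.0419), a difference of 4.32 (SE 0.0880, adjusted p = 2.41e-07). At least 1 count was found in 57.8% and 51.8% of kept B-MF and in 2.56% and 2.75% of kept Mo-MF (exact binomial 95% intervals of 49.9% to 59.7% and 1.75% to 3.75% over the libraries, which cover counting error only). After every cell was thinned to 10000 counts these shares were 47.6%, 43.9%, 1.28% and 1.66%. In the S100-high Mo-MF cells, which carry neutrophil genes, the share before thinning was 2.77% and 3.70% at median depths of 17665 and 17840.5 counts, against 19565 and 19467.5 in the kept Mo-MF, so the share in kept Mo-MF was no higher than in those cells. The gene thus separated the types both in level and in the share of cells with a count. Slc40a1, or ferroportin (chromosome 1, 45908068 to 45926523), was at 4.78 and 4.62 in B-MF against 0.765 and 0.673 in Mo-MF, a difference of 2.55 (SE 0.0741, adjusted p = 4.94e-07). Its shares of cells with a count were 83.7% and 81.7% against 31.2% and 30.6%. In the S100-high Mo-MF cells the share was 63.4% and 67.1%, so they give no background for this gene, and none was measured.

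Cd274 (chromosome 19, 29367455 to 29388095) went the other way. Its level was 0.765 and 0.815 for B-MF against 1.90 and 2.01 for Mo-MF, a difference of -1.21 (SE 0.0668, adjusted p = 9.21e-06). A count was found in 40.6% and 40.2% of B-MF and in 66.7% and 67.1% of Mo-MF. The S100-high Mo-MF cells had it in 67.7% and 72.8%, so here too no background share was available. The groups did not overlap in any of these 3 genes, as in 2887 higher and 2575 lower genes of all 8546 tested. Pdcd1lg2, which encodes the other PD-1 ligand, and Cd276 were under the minimum level, at 0.00200 to 0.0123 and 0.00433 to 0.0116 counts per cell, and were not tested.

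Immediate-early genes, which cells induce within minutes of a signal, were the list with the highest median. Of 21 members tested, 17 were higher, 0 lower and 4 did not pass, with a median of 1.26 against 0.01 for all genes. Egr1, a zinc-finger factor, was at 7.28 and 6.87 in B-MF and at 0.593 and 0.470 in Mo-MF (difference 3.51, adjusted p = 3.26e-07). Nr4a1, an orphan nuclear receptor, was at 1.36 and 1.21 against 0.0887 and 0.0816 (2.90, adjusted p = 3.26e-07). Egr3 was at 0.658 and 0.542 against 0.00559 and 0.00939, and Fosb, an AP-1 subunit, at 1.43 and 1.31 against 0.146 and 0.136. Ier2, Ier3 and Btg2 differed by 2.32, 2.05 and 1.92. In all cells 18 of 22 members were higher and 0 lower, with a median of 1.04. There Egr1, Ier2, Ier3 and Btg2 differed by 2.51, 1.58, 1.49 and 1.14, and Nr4a1 by 2.82. Egr1 was at 6.10 and 5.66 in the S100-high Mo-MF cells. Not every member took part: Jun was at 3.93 and 3.96 in B-MF and at 4.30 and 4.35 in Mo-MF, and Atf3, Jund and Ier5 also did not pass.

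The promoters of the early genes and of the interferon genes described next are shown because members of each list moved together. RefSeq windows, from 250 before to 50 after the start site in GRCm38.p6, were searched on both strands. The core of the cyclic-AMP response element, TGACG, stood in 15 of 24 windows of the early-response list (62.5%, 20 of 25 genes with a window) against 20.8% of all 32851 windows. The longer form TGACGTCA, which contains it, stood in 2 of the 24 (8.33%) against 1.79%, and the serum response factor site known as the CArG box in 5 (20.8%) against 1.63%, but these 5 windows belong to 2 genes only, Egr2 and Zfp36, and the 15 with TGACG to 13 genes. Of those 13 genes, 9 were higher and 0 lower in B-MF, while of the 21 list members tested 17 were higher. Among all 6228 genes with TGACG in a window, tested or not, 366 were higher and 296 lower. TGACG also stood in 9 of 25 windows of the cholesterol list described below (36.0%). Whether the core relates to the difference between types was not tested. Egr1, Egr3 and Ier2 had no window and were not searched. A match is a description of the sequence and not of binding. Below are the windows of Nr4a1 (chr15:101266596-101266895, plus strand), Fosb (chr7:19309996-19310295, minus strand) and Btg2 (chr1:134079106-134079405, minus strand), with TGACG or its reverse complement in capitals.
Nr4a1: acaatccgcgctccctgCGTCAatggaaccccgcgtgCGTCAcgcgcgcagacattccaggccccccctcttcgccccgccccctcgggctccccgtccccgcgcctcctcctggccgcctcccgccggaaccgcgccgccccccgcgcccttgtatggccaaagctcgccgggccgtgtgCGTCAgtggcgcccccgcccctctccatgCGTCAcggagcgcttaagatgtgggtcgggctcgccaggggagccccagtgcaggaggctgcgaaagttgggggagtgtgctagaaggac
Fosb: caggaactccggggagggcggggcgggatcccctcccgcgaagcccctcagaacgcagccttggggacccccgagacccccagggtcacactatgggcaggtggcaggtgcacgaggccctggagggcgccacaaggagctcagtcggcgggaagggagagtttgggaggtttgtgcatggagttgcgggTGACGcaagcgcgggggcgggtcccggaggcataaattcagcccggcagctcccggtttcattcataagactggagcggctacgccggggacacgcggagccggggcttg
Btg2: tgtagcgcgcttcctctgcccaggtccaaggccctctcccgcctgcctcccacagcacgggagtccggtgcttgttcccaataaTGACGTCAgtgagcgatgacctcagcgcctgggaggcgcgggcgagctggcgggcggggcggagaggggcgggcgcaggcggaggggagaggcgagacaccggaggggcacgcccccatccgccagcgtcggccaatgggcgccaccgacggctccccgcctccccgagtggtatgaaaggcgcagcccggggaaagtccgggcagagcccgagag

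Interferon response genes were the list with the lowest median, -0.79. Of 30 members tested, 25 were lower in B-MF, 1 higher and 4 did not pass. Irf7, the factor that amplifies type I interferon, was at 1.76 and 1.82 counts per cell in B-MF and at 5.60 and 5.23 in Mo-MF (difference -1.54, adjusted p = 2.71e-06). Oasl1 was at 0.387 and 0.368 against 1.11 and 1.08, and Ifit3, which binds viral RNA with its relatives, at 0.296 and 0.252 against 0.776 and 0.832 (-1.27, adjusted p = 1.53e-05). Rsad2, or viperin, was at 0.431 and 0.517 against 1.06 and 1.26. The libraries of the types did not overlap in these genes, as in 2575 lower genes of all 8546 tested. The exception was Gbp7, a guanylate-binding protein, at 0.560 and 0.538 against 0.327 and 0.293 (0.66). The core of the interferon-stimulated response element (GAAA repeated with any 2 bases between the copies) was also sought on both strands. It stood in 20 of 36 windows of this list (55.6%, 30 of 37 genes with a window) against 3.44% of all windows. Of the 20 genes with it, tested or not, 12 were lower and 1 higher in B-MF, while of the 30 list members tested 25 were lower. Among all 1079 genes with this core, 64 were lower and 45 higher, and its relation to the difference was not tested. The windows of Ifit3 (chr19:34583279-34583578, plus strand) and Rsad2 (chr12:26456403-26456702, minus strand), the lower members holding the core with the largest differences, follow with the core or its reverse complement in capitals.
Ifit3: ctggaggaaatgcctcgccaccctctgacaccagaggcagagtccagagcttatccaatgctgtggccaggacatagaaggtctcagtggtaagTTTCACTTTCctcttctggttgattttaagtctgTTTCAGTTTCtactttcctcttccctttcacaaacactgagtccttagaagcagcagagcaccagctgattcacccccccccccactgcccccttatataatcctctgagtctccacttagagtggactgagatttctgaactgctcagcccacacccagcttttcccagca
Rsad2: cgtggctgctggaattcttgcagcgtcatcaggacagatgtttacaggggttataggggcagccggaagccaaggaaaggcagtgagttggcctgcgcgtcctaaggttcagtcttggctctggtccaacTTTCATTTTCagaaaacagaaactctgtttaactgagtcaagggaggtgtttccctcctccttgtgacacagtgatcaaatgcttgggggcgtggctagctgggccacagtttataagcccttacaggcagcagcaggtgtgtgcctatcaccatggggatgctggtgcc

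Open chromatin at these windows was measured by ATAC-seq only in B-cell precursors of naive mice, with 3 libraries for each combination of organ (BM or spleen) and CSF1R status, and not in the cultures. Those samples carry the name macrophage in the labels, while the study's methods describe precursors. The windows of Id3, Nr4a1, Fosb, Btg2, Ifit3, Rsad2 and Cd274 each overlapped a peak in all 12 libraries, where 34.7% to 41.6% of all windows did. The peak at Id3 had a fold enrichment of 9.14 to 9.85 in CSF1R+ BM cells and of 9.87 to 10.4 in CSF1R- BM cells, and of 11.5 to 13.7 in the spleen libraries, while the median over all windows with a peak was 14.6 to 18.8. The fold at Id3 was thus under that median.

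MHC class I genes were lower in the same direction as the interferon genes. Of 21 tested, 13 were lower, 2 higher and 6 did not pass, with a median of -0.23. The nonclassical H2-Q7, H2-Q6 and H2-T23 differed by -0.82, -0.74 and -0.73, and the 2 higher members, Calr and Pdia3, are chaperones with many other clients. MHC class II genes were few above the minimum. Of 6 tested, Cd74, the invariant chain, was at 3.38 and 3.52 in B-MF and at 2.15 and 1.71 in Mo-MF (0.81, adjusted p = 7.04e-04), and H2-Eb1 and H2-Ab1 differed by 0.73 and 0.35, the latter turning to -0.04 with means of ln values. Ctss, the protease that trims the invariant chain, was lower at 54.5 and 52.0 against 76.4 and 74.5 (-0.50), and H2-DMa, which loads peptide, was lower by -0.31.

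Inflammatory cytokines and chemokines were higher in B-MF for 17 of 26 members tested, lower for 3, with a median of 0.77. In all cells 17 were higher and 8 lower of 27, with a median of 0.43, and Il1b and Cxcl2 turned to -0.18 and -0.60. Il1b had 1.36 and 1.04 counts per cell in B-MF against 0.101 and 0.0961 in Mo-MF (2.70, adjusted p = 2.13e-06). Cxcl2, which recruits neutrophils, was at 2.29 and 1.77 against 0.405 and 0.436 (2.02, adjusted p = 8.73e-06), and Ccl24, which recruits eosinophils, at 0.50 and 0.464 against 0.0463 and 0.0332. The 3 lower members were Ccl8, at 6.31 and 6.25 against 28.1 and 25.5 (-2.07), Il1rn, the natural antagonist of the interleukin-1 receptor, at 0.423 and 0.373 against 1.59 and 1.74 (-1.83), and Cxcl16 at 2.64 and 2.72 against 5.02 and 5.03. An agonist and the antagonist of the same receptor, Il1b and Il1rn, thus differed in opposite directions.

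**Figure D3:**
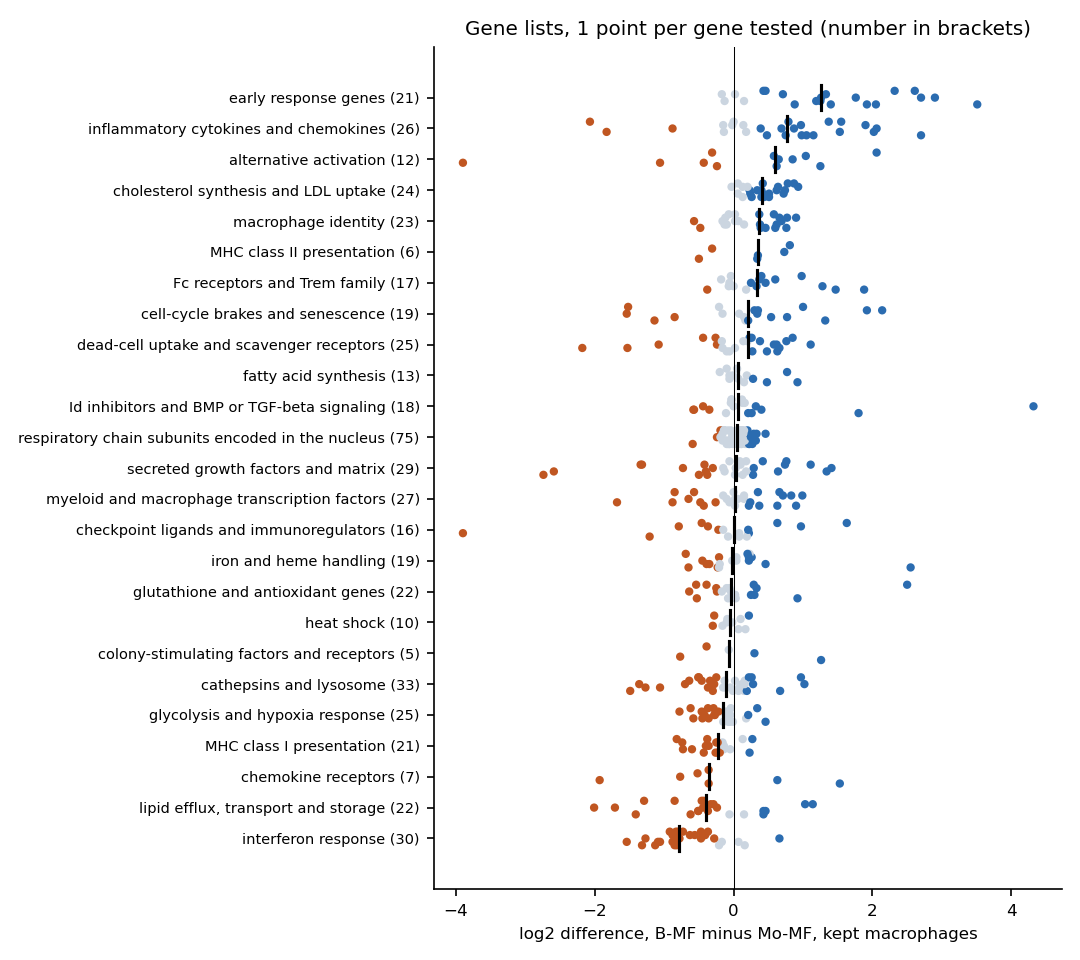
Log2 difference, B-MF minus Mo-MF, in kept macrophages (x axis) for each gene tested of 25 gene lists, with the number of genes in brackets. Blue and orange points passed the test, grey points did not, and black bars are medians, from 1.26 for early response genes to -0.79 for interferon response genes.

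Chemokine receptors split by gene, with 2 higher and 5 lower of 7 tested (2 and 8 of 10 in all cells). Ccr1 was at 4.43 and 4.39 in B-MF and at 1.5 and 1.43 in Mo-MF (1.53), and C5ar1, the receptor for complement C5a, differed by 0.63. Ccr2, which brings monocytes out of BM, was at 0.0282 and 0.0387 against 0.404 and 0.413 (-1.93, adjusted p = 1.05e-06), and Ccrl2 differed by -0.52. Among the colony-stimulating factors and their receptors other than Csf1r, Csf1 itself was at 0.357 and 0.306 in B-MF and at 0.0871 and 0.0730 in Mo-MF (1.26). Csf2ra, the GM-CSF receptor chain, was lower, by -0.77, and so was Il3ra, by -0.39, while Csf2rb was higher, by 0.30, a call lost in all cells (0.12, adjusted p = 0.0909).

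Macrophage identity genes were higher in B-MF for 12 of 23 members tested and lower for 2, with a median of 0.37 (13 and 5 in all cells). Maf, a transcription factor of resident macrophages, was at 8.49 and 8.57 in B-MF and at 4.51 and 4.57 in Mo-MF (0.90, adjusted p = 3.04e-05). Cd14 differed by 0.77, and Cebpa, a myeloid factor, by -0.48. Of 27 transcription factors tested, 10 were higher and 8 lower, a balance that turned in all cells, where 7 were higher and 11 lower. Cebpd was at 1.01 and 0.875 against 0.432 and 0.415 but differed by -0.20 in all cells, where it did not pass, and Ahr differed by 0.83. Runx3 was at 0.0598 and 0.0574 against 0.404 and 0.409 (-1.68, adjusted p = 1.30e-06), and Bhlhe40 and Nr1h3, the liver X receptor, by -0.88 and -0.85. Spi1, or PU.1, did not pass (0.02).

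Genes of dead-cell uptake included 12 higher and 6 lower of 25 tested, with a median of 0.20. The 3 subunits of complement C1q were higher: C1qa was at 22.1 and 20.9 in B-MF and at 14.2 and 12.9 in Mo-MF (0.66, adjusted p = 3.89e-04), and C1qb and C1qc differed by 0.58 and 0.76. Within each library C1qa was spread widely, with a median over cells of 6 in both B-MF libraries and 2 in both Mo-MF libraries, and a 90th percentile of 40 to 68. Bridging molecules that link dead cells to receptors split between the types. Gas6, the ligand of MERTK and AXL, was at 12.4 and 11.9 in B-MF and at 5.58 and 5.55 in Mo-MF (1.11). Mfge8, the ligand of integrins, was at 2.05 and 1.86 against 8.62 and 9.80 (-2.18, adjusted p = 1.73e-06), and Axl itself at 0.0480 and 0.0493 against 0.335 and 0.324 (-1.53). Mertk did not pass, at 0.544 to 0.603 in all libraries. Mrc1, the mannose receptor CD206, was at 11.2 and 11.4 against 7.23 and 7.34 (0.62, adjusted p = 1.91e-04), and Stab1 and Anxa1 differed by 0.85 and -1.08. Marco was at 0.0305 and 0.00900 in B-MF and at 0 in Mo-MF, under the minimum level.

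Fc receptors and their relatives were higher for 10 of 17 tested and lower for 1, while in all cells, before selection, 9 were higher and 5 lower. Clec4n, or dectin-2, was at 6.73 and 6.44 in B-MF and at 1.81 and 1.63 in Mo-MF (1.88, adjusted p = 1.73e-06). Fcgrt, the neonatal Fc receptor that recycles IgG, was at 7.11 and 6.77 against 2.45 and 2.45 (1.47), and Fcrls at 1.76 and 1.60 against 0.609 and 0.652 (1.28). Clec4a1 was the lower member, at -0.38, but did not pass in Csf3r-positive macrophages (-0.20, adjusted p = 0.0790).

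Genes of cholesterol synthesis and uptake were higher for 18 of 24 tested, lower for 0, with a median of 0.41. Sqle, squalene epoxidase, was at 0.526 and 0.472 in B-MF and at 0.215 and 0.215 in Mo-MF (0.93, adjusted p = 4.52e-05), and Fdps, farnesyl diphosphate synthase, was at 1.10 and 0.985 against 0.556 and 0.496 (0.87). The core of the sterol response element, TCACNCCAC, was found in 1 of 25 windows of this list (4.0%) against 1.24% of all windows. Fatty acid synthesis held 4 higher and 0 lower of 13, with Acsl3, Scd2 and Fasn at 0.92, 0.77 and 0.48. In the list of lipid efflux, transport and storage, 15 of 22 were lower and 5 higher, with a median of -0.40. Apoe, the lipoprotein that carries cholesterol out of macrophages, was at 118 and 118 in B-MF and at 481 and 469 in Mo-MF (-2.01, adjusted p = 5.83e-07). Plin2, the coat protein of lipid droplets, was at 10.00 and 9.98 against 32.7 and 33.3 (-1.71, adjusted p = 1.16e-06), and Pla2g7 at 3.01 and 2.96 against 8.32 and 7.92. Gpnmb, at 140 and 134 against 69.4 and 65.1 (1.03), Fabp3 (1.14) and Trem2 (0.46) were higher members, and Pltp was lower by -0.29. Acat1 (0.43), also counted among the 5 higher, encodes a mitochondrial acetyl-CoA acetyltransferase and is not itself a gene of lipid efflux, transport or storage. Pltp did not pass in Csf3r-positive macrophages (-0.11, adjusted p = 0.192).

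Iron genes moved in both directions, with 6 higher and 7 lower of 19 and a median of -0.02. Beside Slc40a1, Hfe and Blvrb were higher, by 0.46 and 0.26. Fth1, the ferritin heavy chain that stores iron, was at 856 and 890 counts per cell in B-MF and at 1395 and 1421 in Mo-MF (-0.69, adjusted p = 1.36e-04), and Flvcr1, the heme exporter, and Slc11a2, an iron importer, differed by -0.65 and -0.45. The iron exporter was thus higher and the ferritin chain lower in B-MF. Among 22 antioxidant genes, 6 were higher and 6 lower (6 and 10 of 23 in all cells). Gpx3, secreted glutathione peroxidase, was at 3.15 and 2.93 against 0.456 and 0.449 (2.50, adjusted p = 3.26e-07), Prdx4 differed by 0.92 and Sod2 by 0.33, while Srxn1, Gstm1 and Txn1 were lower by -0.64, -0.54 and -0.53.

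**Figure D4:**
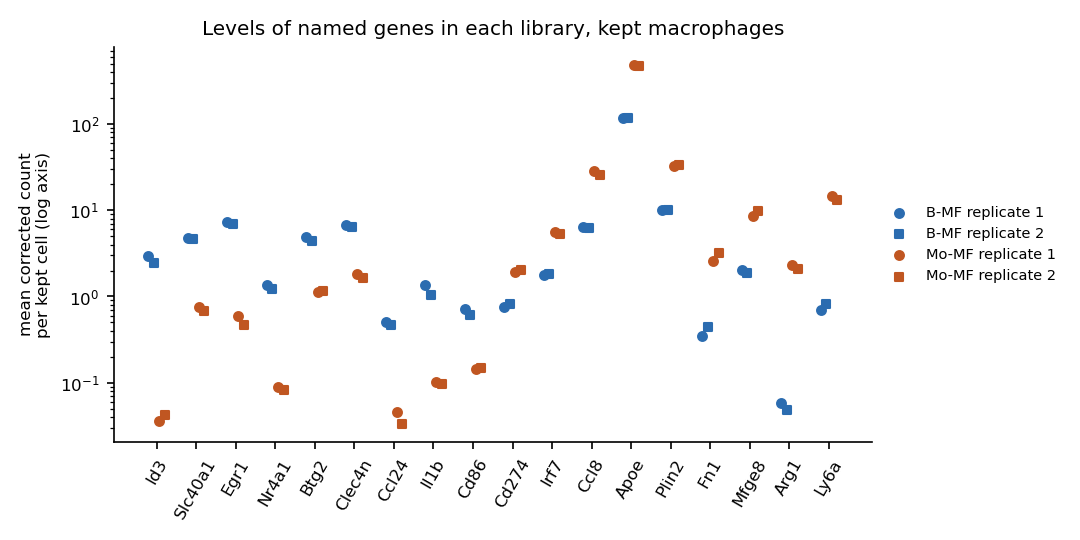
Mean corrected count per kept cell (log y axis) of 18 named genes in each of the 4 libraries. The libraries of a type lie close together, and in each of these genes the B-MF and Mo-MF libraries do not overlap. Among all 8546 genes tested, 2887 higher and 2575 lower ones do not overlap.

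Respiratory chain subunits encoded in the nucleus were mostly level: 12 of 75 were higher and 3 lower, against 15.8% and 13.7% of all genes, and the median was 0.05. Ndufs8, Ndufb11 and Cox4i1 differed by 0.46, 0.33 and 0.32, and Cycs, cytochrome c, by -0.59, with 1.15 and 1.07 counts against 1.73 and 1.72. In all cells, before selection, 39 of the 75 were higher and 3 lower, against 22.6% and 16.9% of all genes there. Glycolysis and hypoxia genes were lower for 12 of 25 and higher for 3, with a median of -0.15. Hk3, a hexokinase of myeloid cells, was at 2.25 and 2.23 against 4.0 and 3.83 (-0.78), Slc16a3, the lactate exporter, and Eno2 differed by -0.62 and -0.58, and Aldoc, Gpi1 and Hif1a by 0.46, 0.34 and 0.21. Hif1a turned to -0.04 in all cells (adjusted p = 0.553). Of 10 heat shock genes, 7 did not pass, Hspa5 was at 0.22, and Hsp90aa1 and Hsph1 at -0.28 and -0.30. Neither of the lower pair passed in all cells (-0.09, adjusted p = 0.239, and -0.14, adjusted p = 0.0884), where 3 of the 10 were higher and 0 lower.

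Checkpoint ligands and immunoregulators, Cd274 among them, held 5 higher and 6 lower of 16. Arg1, arginase 1, was at 0.0583 and 0.0480 in B-MF and at 2.29 and 2.08 in Mo-MF (-3.90, adjusted p = 2.41e-07). A count of Arg1 was found in 1.87% and 1.27% of B-MF and in 21.7% and 21.5% of Mo-MF, so that most Mo-MF also held 0 counts. Cd86, a costimulatory ligand, was at 0.714 and 0.616 against 0.145 and 0.149 (1.63, adjusted p = 4.10e-06). Ptgs2, or COX-2, and Entpd1, or CD39, differed by 0.97 (-0.10 in all cells, where it did not pass) and 0.63, Lgals3 by -0.79 and Tgfb1 by 0.21. Genes linked to alternative activation were split as well, with 7 higher and 5 lower of 12: Ccl24, Egr2 and Socs3 were higher, by 2.06, 1.25 and 1.04, and Arg1, Folr2 and Pparg lower, Folr2 at 3.04 and 2.91 against 6.51 and 6.13 (-1.06) and Pparg by -0.43.

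In the Id, BMP and TGF-beta list 6 of 18 were higher and 4 lower. Id1, Id2 and Id3 were among the 6. Id1 was at 0.315 and 0.276 in B-MF and at 0.0152 and 0.0116 in Mo-MF (1.80, adjusted p = 1.92e-06), and Id2 at 10.1 and 9.44 against 7.30 and 7.43 (0.40). In Csf3r-positive macrophages Id1 was under the minimum level and was not tested. The receptor Tgfbr1, its target Tgfbi and Eng differed by -0.58, -0.57 and -0.44, while the SMAD genes Smad1 and Smad5 did not pass.

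Secreted growth factors and matrix genes were 9 higher and 10 lower of 29. Fn1, fibronectin, was at 0.350 and 0.439 in B-MF and at 2.59 and 3.16 in Mo-MF (-2.59, adjusted p = 2.91e-06), and Mmp14, a membrane-bound collagenase, at 0.0248 and 0.020 against 0.735 and 0.697 (-2.74, adjusted p = 2.85e-07). Pdgfa and Thbs1 differed by -1.34 and -0.73. Nrg1, a ligand of ERBB receptors, was at 0.559 and 0.472 against 0.149 and 0.115 (1.41), and Igfbp4 at 3.94 and 3.61 against 1.39 and 1.47 (1.34). Vcan was at 0.0577 to 0.0853 in all libraries, under the minimum. Of 33 lysosome genes, 14 were lower and 7 higher. Ctsl, cathepsin L, was at 136 and 131 against 342 and 342 (-1.36), Ctsh and Ctsk, the latter also an osteoclast marker, differed by -1.49 and -1.27, and Ctsc, Ctsf and Glb1 by 1.02, 0.97 and 0.67.

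Genes of the cell-cycle brake and senescence list were higher for 10 of 19 and lower for 4 (9 and 7 in all cells). The kept cells are those left after removing cells with 3 or more counts of Mki67 and Top2a. The list also holds genes that are not brakes, among them the D cyclins Ccnd1, Ccnd2 and Ccnd3. Cdkn2a, which encodes p16 and p19ARF, was at 0.403 and 0.313 in B-MF and at 0.00399 and 0.00217 in Mo-MF (2.14, adjusted p = 2.91e-06), and Cdkn1a, p21, at 9.02 and 8.61 against 3.59 and 3.36 (1.32, adjusted p = 6.23e-06). In Csf3r-positive macrophages Cdkn2a was under the minimum level and was not tested. Cdkn1c, p57, was at 0.111 and 0.120 against 0.610 and 0.451 (-1.54), and the stress genes Gadd45a and Gadd45b differed by -1.52 and -1.14. The 33 genes of S and G2/M phase, which the rule affects, summed to 7.68 and 6.67 in B-MF and to 6.90 and 7.35 in Mo-MF. The list includes Mki67 and Top2a, which the rule reads, so no test of it is given.

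Among the genes named for the size of their difference, Ly6a, Plac8, Bex1, Slfn1 and F10 were lower in B-MF. Ly6a, or Sca-1, was at 0.691 and 0.823 in B-MF and at 14.4 and 13.1 in Mo-MF (-4.02, adjusted p = 2.62e-07). Plac8, a monocyte gene, was at 0.00381 and 0.0160 against 0.843 and 0.751 (-3.03), Bex1 at 0.545 and 0.533 against 4.63 and 4.36 (-2.85), Slfn1 at 0.00990 and 0.0123 against 0.711 and 0.624 (-2.79), and F10, coagulation factor X, at 0.0868 and 0.0917 against 1.24 and 1.09 (-2.74). B-cell genes left in the kept B-MF were few. The 16 B-cell markers measured summed to 0.636 and 0.647 in B-MF and to 0.874 and 0.813 in Mo-MF. Of 2 tested, 1 was higher in B-MF and 1 lower. Ighm, the heavy chain of IgM, was at 0.380 and 0.365 in B-MF and at 0.0112 and 0.0101 in Mo-MF (2.09, adjusted p = 4.94e-07). Cd79a was at most 0.00867 counts per cell in all libraries, while Cd22, a sialic acid receptor of B cells, was higher in Mo-MF, at 0.671 and 0.643 against 0.111 and 0.10.

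Most genes called in the kept cells were also called in all cells. Of 8483 genes tested in both, 2193 passed in the same direction with and without selection, 7 passed in opposite directions, 305 passed in kept cells only and 1137 in all cells only. The cells are shared, so these counts describe the selection and are not independent evidence. S100a8 (-7.90 in all cells, -1.93 in kept cells) and S100a9 (-8.76 and -2.84), which the rule reads, moved most. Il1b and Cxcl2 were the next. In all cells Il1b was at 1.30 and 1.06 in B-MF and at 1.47 and 1.22 in Mo-MF (-0.18, adjusted p = 0.222), and Cxcl2 at 2.47 and 1.95 against 3.53 and 3.23 (-0.60, adjusted p = 0.00213). The S100-high Mo-MF cells had 10.9 and 10.3 counts of Il1b and 28.1 and 28.8 of Cxcl2, against 0.101 and 0.0961 and 0.405 and 0.436 in the kept Mo-MF. Cebpd (-0.20 in all cells, 0.99 in kept cells) and Ptgs2 (-0.10 and 0.97) moved in the same way, with 7.07 and 6.72 and with 1.82 and 1.47 counts in the S100-high cells. Hp, haptoglobin, went from -2.27 to -0.25.

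Ccl2 and Ccl7, attractants of monocytes, moved the other way. In all cells Ccl2 was at 9.81 and 9.20 in B-MF and at 5.81 and 5.71 in Mo-MF (0.71, adjusted p = 2.53e-05), and in kept cells at 10.3 and 9.32 against 9.24 and 8.51 (0.14, adjusted p = 0.206). Ccl7 differed by 0.46 in all cells and by -0.15 in kept cells (adjusted p = 0.139). The Csf3r-positive Mo-MF were low, at 3.75 and 3.66 counts of Ccl2 and 3.05 and 2.83 of Ccl7, and so were the S100-high Mo-MF, at 5.65 and 3.58 of Ccl2 and 4.25 and 2.84 of Ccl7. Timp1 was at 0.163 and 0.137 against 0.181 and 0.141 in kept cells, and its difference was 0.59 in all cells and 0.55 when only the Csf1r condition was dropped. Fibroblast markers moved with it, at 0.319 and 0.230 in all B-MF against 0.0221 and 0.0333 in kept B-MF, and their part in the Timp1 values was not tested.

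**Figure D5:**
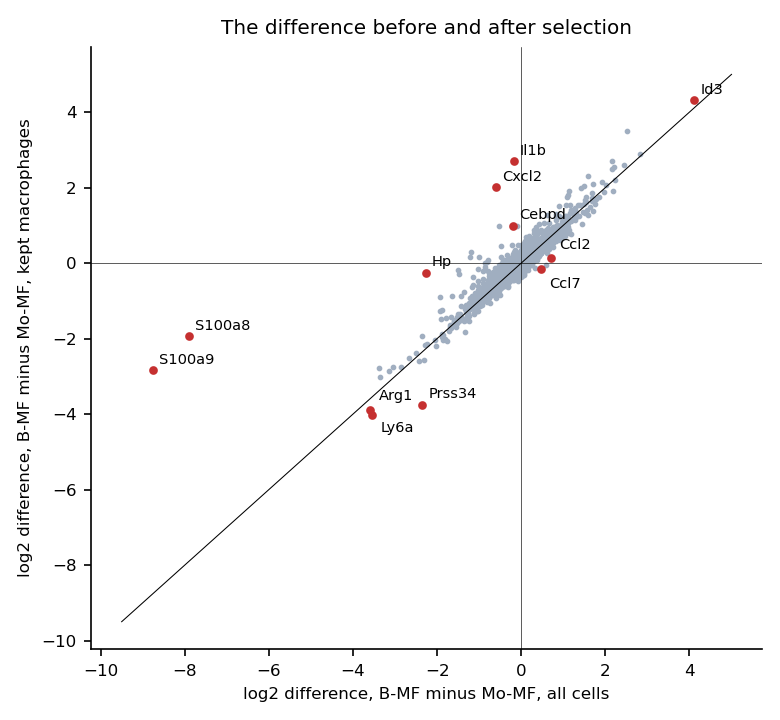
Log2 difference, B-MF minus Mo-MF, of each gene in all cells (x axis) and in kept macrophages (y axis), with the line of equality and 12 genes named. Id3 (4.12 and 4.32) and Arg1 (-3.59 and -3.90) lie near the line, Il1b (-0.18 and 2.70) and Cxcl2 (-0.60 and 2.02) far above it.

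The 8887 Csf3r-positive macrophages, which met every other condition, were compared in place of the kept cells. There 1537 genes (18.1%) were higher and 1319 (15.6%) lower of 8470. The change of each library's log2 mean from kept to Csf3r-positive cells was then compared between the types for 8403 genes, and 174 (2.07%) passed, 77 with a positive and 97 with a negative change of the signed B-MF minus Mo-MF difference. Id3 differed by 3.95 in the Csf3r-positive cells, less than in the kept cells by 0.37 (adjusted p = 0.0139), and Slc40a1 by 2.11, a change of -0.44 (adjusted p = 0.0139). Il1b differed by 1.29 there, a change of -1.41 (adjusted p = 2.79e-04). C1qa differed more, by 1.18 against 0.66 (change 0.52, adjusted p = 0.0139), as did Ccl7 (change 0.93, adjusted p = 2.79e-04), while Ly6a was less far apart (-3.38, change 0.64). The direction of Id3, Slc40a1, Il1b, C1qa and Ly6a was the same with and without a count of Csf3r.

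Cycling macrophages, the 766 cells that failed on Mki67 and Top2a only, were the other class large enough to compare. The difference between types changed from kept to cycling cells in 31 of 8487 genes (0.365%). These calls rest on few cells, 101 in the smallest library, and limma made 0 calls without B-MF replicate 1, with 709 genes at an unadjusted p under 0.05, and 0 without B-MF replicate 2, with 686. In those fits the spread comes from the Mo-MF pair alone. With all libraries 1384 genes were at an unadjusted p under 0.05. Fn1 was at 0.557 and 0.473 in cycling B-MF and at 0.703 and 0.393 in cycling Mo-MF, so that its difference of -2.59 in kept cells became -0.04 (change 2.55, adjusted p = 0.0320). Mmp14 moved likewise, by 1.42 (adjusted p = 0.0192). Id1 was further apart in cycling cells, at 1.04 and 1.14 against 0.0297 and 0.0400 (change 1.34, adjusted p = 0.0192), and so was Ccl8, at 2.25 and 2.25 against 31.5 and 27.7 (change -1.58, adjusted p = 0.00463). Id3 was at 4.19 and 3.14 in cycling B-MF and at 0.0594 and 0.0533 in cycling Mo-MF.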

How the data were processed

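Single cells were measured with 10x Genomics 3' chemistry. The authors aligned reads with Cell Ranger (mm10 per the labels), normalized with SCTransform in Seurat, and deposited the natural log of 1 plus the corrected count. All values above 0 returned whole counts within 1e-06. Corrected counts are scaled to a common depth, so no count model was used. No cell was removed as a doublet here. Library means were compared as log2(mean + 0.1) with limma 3.58.1 in R 4.3.3 (lmFit, eBayes, 5.78 prior degrees of freedom, two-sided, Benjamini-Hochberg over 8546 genes with a mean of at least 0.1). The same steps were also run on simulated data with 2 against 2 libraries, with noise drawn from the spread of the B-MF pair. The outcome is not given here. The deposited ATAC-seq peaks give the MACS2 fold enrichment, called per library by the authors, and any overlap of 1 base with a window counted.

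Members and lists were chosen with earlier results of these data known. Named genes were the 4 markers Csf1r, Id3, Slc40a1 and Cd274, the 8 largest differences in each direction, up to 3 called members of each list in each direction, genes discussed in the study, and the 5 in each direction that selection moved most. Jun, Atf3, Jund, Ier5, Rsad2, Mertk, Spi1, Smad1, Smad5, Cd22, Ngp, F13a1, Ifitm6, Ms4a4c, Acp5, Mmp9 and Zfp36 were named after their values were seen. A few genes that the rule takes are not reported here. Tumor macrophages were counted but not analysed here.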

Additional observations from a re-analysis of the deposited data

Results flagged for a closer look

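Genes taken by the naming rule are given here where the B-MF minus Mo-MF difference itself differed between classes of macrophages, by limma on the change of each library's log2 mean from kept cells to the other class (adjusted p under 0.05). Values are that change, positive where the difference was higher in the other class.

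From kept to cycling macrophages the change was 2.55 for Fn1, 1.42 for Mmp14 and 1.34 for Id1. It was -1.58 for Ccl8, -1.23 for Fcrls, -0.93 for Pltp, -0.82 for H2-Q7 and -0.81 for Folr2. As given in the report, 0 calls of this kind were left without either B-MF library.

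From kept to Csf3r-positive macrophages, a comparison added after seeing the data, chemokines changed by 0.93 for Ccl7, 0.83 for Ccl2 and 0.58 for Ccl8, while Cxcl2 changed by -0.50 and Il1b by -1.41, with Il1rn at 0.68. The complement genes C1qa, C1qb and C1qc changed by 0.52, 0.41 and 0.34. Surface receptors changed by 0.65 for Fcrls, 0.49 for Folr2, 0.42 for Cd14, 0.35 for Mrc1, 0.31 for Clec4n, 0.28 for C5ar1 and 0.24 for Ccr1. Positive changes were also found for Ly6a (0.64), Apoe (0.40), Ifit3 (0.40), Pla2g7 (0.35) and Fosb (0.26). Negative changes were found for Bex1 (-0.52), Gpx3 (-0.52), Hp (-0.49), Slc40a1 (-0.44), Id3 (-0.37), Bhlhe40 (-0.33), Entpd1 (-0.32) and Mmp14 (-0.32).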

How the results depend on the processing

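Over 23 alternatives, the 146 genes taken by the naming rule kept their direction and side of the threshold in 3213 of the pairs of gene and alternative, lost the call in 67, gained it in 14 and reversed in 18. Without Mo-MF replicate 1 or 2, 14 calls were lost each time. Leaving out 1 library gave 801 to 2472 higher and 695 to 2458 lower genes, each with a lone sample assumed to vary like the other type, and the other alternatives stayed within 1.5 times of 1352 and 1167. In all cells the difference was -0.20 for Cebpd, -0.60 for Cxcl2, -0.04 for Hif1a, -0.18 for Il1b and -0.10 for Ptgs2. H2-Ab1 was at -0.04 with means of ln values. Ccl7 was at 0.45 with means of ln values, 0.46 in all cells, 0.45 without the Csf3r condition, 0.11 with Ly6c2 and Plac8 under 3, and, chosen after seeing the data, 0.18 with Csf3r of at most 2 and 0.78 in Csf3r-positive cells. Timp1 was at -0.17 to 0.05 with 1 library left out (0.02 without B-MF replicate 2, 0.05 without Mo-MF replicate 1), 0.59 in all cells, 0.08 without the Csf3r condition, 0.55 without the Csf1r condition and 0.17 in Csf3r-positive cells. The cause of these changes was not tested.

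The 31 genes that differed between cycling and kept cells became 2 with a pseudocount of 0.01, 311 with 1, 92 with a mean of at least 0.5, and 0 to 34 with 1 library left out. With the replicate number as a block, 1530 genes were higher, 1358 lower, and 53 differed with cycling. The labels name no shared batch and there are only 2 pairs (correlation of deviations 0.14), so the samples share only a number.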
